A study of Mus musculus with 30 samples.

Results

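Pachytene spermatocytes carried 5425 open chromatin regions near the distal ends of the mouse autosomes that were listed for no other germ cell stage studied. A region belonged to this set when it was listed as an ATAC-seq peak in pachytene spermatocytes (pacSC), met no peak of the other 3 stages by even 1 bp, and had its midpoint within 10 Mb of the highest peak end of chromosomes 1 to 19. The peaks of all 4 stages joined into 113894 regions on these chromosomes. Of them, 13586 were listed in pacSC alone, which is 11.9% of all regions, 35.3% of those in the last 10 Mb and 8.28% of those elsewhere. The set was chosen on this listing and on this position, so both are given as descriptions without a test. The number of members rested on weak peaks: only 120 had a −log10 q, the peak caller's significance, of at least 5. With all lists held to this limit, the same rule gave 270 regions. With each list held to its 6459 strongest peaks, it gave 762. Both counts can take in regions that are not members, since weaker peaks of the other lists drop out.

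The study followed male germ cells of C57BL/6 mice, taken from testes. The groups were primitive type A spermatogonia (PriSG-A) at day 6 after birth and type A spermatogonia (SG-A) at day 8, both mitotic, then adult pacSC in meiosis and adult round spermatids (rST), which are haploid. ATAC-seq uses the transposase Tn5 to cut accessible DNA, so that piled-up fragments mark open chromatin. PriSG-A and SG-A had 3 libraries each, pacSC and rST 2 each, but 1 peak list stands for all libraries of a stage, so the spread between replicates could not be measured. The peak lists name no genes, so the labelled cell types could not be checked against markers. In such bulk lists, more cells with an open site and a more open site per cell cannot be told apart.

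In pachytene, homologous chromosomes are fully paired along the synaptonemal complex, crossovers mature, and the chromosome ends are anchored in the nuclear envelope. Mouse autosomes are telocentric: coordinates start beside the centromere and run out to the distal telomere. In male mice crossovers are known to be frequent towards the distal ends. At this stage the autosomes are heavily transcribed, while X and Y are silenced.

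The regions crowded the outermost few Mb. The distal 10 Mb of the 19 autosomes held 28.6 pachytene-only regions per Mb, against 3.67 per Mb over the remaining 2224 Mb, a ratio of 7.78 (95% Poisson interval 7.52 to 8.05). It was 11.6 at a −log10 q of at least 5 in all lists, 4.80 when peaks had to share 50% of both lengths to count as common, 5.17 for a zone of 20 Mb and 3.13 when each window of 100 kb counted once. Intervals here and below cover counting error only, and they treat neighbouring regions as independent. Of all pachytene-only regions 39.9% lay in the last 10 Mb (95% Wilson interval 39.1 to 40.8), where 13.5% of the regions of all stages lay (13.3 to 13.7).

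Within the zone the density changed with distance from the end. The outermost 1 Mb had 54.1 regions per Mb, the stretch between 1 and 2 Mb 60.3, that between 2 and 3 Mb 47.8 and that between 3 and 4 Mb 34.9. From 5 to 10 Mb it was 13.1 per Mb (12.4 to 13.8), from 10 to 20 Mb 6.59 (6.23 to 6.96) and from 20 to 40 Mb 3.86 (3.67 to 4.06). The highest value was at the tip, where the last 0.1 Mb held 140 regions, or 73.7 per Mb (62.0 to 86.4), an interval that overlaps that of 1 to 2 Mb (56.9 to 63.9). The tip was uneven between chromosomes. Of the 140, 21 lay in chr11:121775674-121829097 and 19 in chr7:152429771-152465864. Chromosomes 8 and 13 had no member nearer to the end than 431 and 498 kb. Since the outermost peak sets the end, each chromosome has a region of some stage at its tip by construction. The median member lay 2.58 Mb from the end, and 3081 of the 5425, or 56.8% (55.5 to 58.1), lay within 3 Mb of it.

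**Figure D1:**
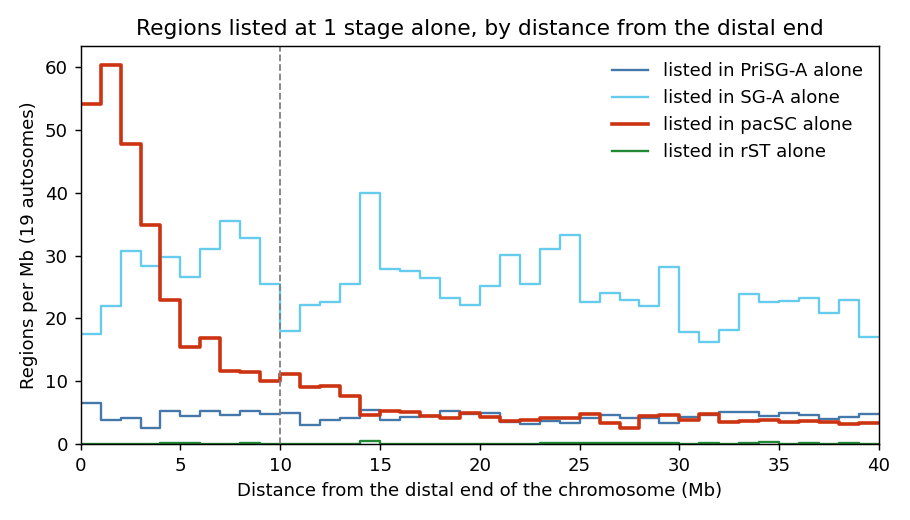
Regions per Mb of the 19 autosomes (vertical axis) that were listed at 1 stage alone, in bins of 1 Mb by distance from the distal end (horizontal axis, Mb), with 1 line per stage and a dashed line at 10 Mb. The pacSC line reaches 60.3 per Mb between 1 and 2 Mb and is at 10.1 between 9 and 10 Mb, while the SG-A line is at 17.6 in the last 1 Mb and 25.4 between 9 and 10 Mb.

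No step marked the 10 Mb border. Between 9 and 10 Mb there were 192 pachytene-only regions, and between 10 and 11 Mb, just outside, there were 211. The 3 members nearest inside the border were chr11:111866583-111866882 (signal value 408), chr2:171773239-171773559 (170) and chr19:51373754-51373824 (29.4). The 3 pachytene-only regions nearest outside were chr1:187098752-187098821 (28.7) and chr8:121588638-121588727 (26.0) and chr8:121588329-121588428 (72.7). The signal value is the authors' number for each peak, an area that grows with the width of the peak, and it is used here only within a list.

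The other stages had no such crowding among the regions they alone held. Of the regions that SG-A alone held, 10.4% lay in the last 10 Mb (10.1 to 10.7). For PriSG-A alone it was 6.07% (5.69 to 6.46), and for rST alone 4.68% (2.94 to 7.37, 17 of 363). Depth behind each list is unknown, so these shares compare lists and not amounts of open chromatin. The opposite, centromere-side end of the chromosomes held 1379 pachytene-only regions in its first 10 Mb. Members outnumbered them on each of the 19 autosomes, with 178 to 452 per chromosome at the distal end against 27 to 160 at the other. The centromere-side end was still fuller than the sequence outside the distal zone as a whole. Its 1379 regions are part of the 8161 found there over 2224 Mb, and they lay more densely than the 3.67 per Mb of that whole. They therefore raise the density with which the distal zone was compared.

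Every autosome contributed, and long chromosomes did not stand out. Chromosome 7 had the most members, 452, and chromosome 9 the fewest, 178, a difference of 2.54 times, with a median of 281 over the autosomes. Across the 19 chromosomes the count had a Pearson r of 0.26 and a Spearman rho of 0.21 with chromosome span, given as a description over chromosomes that share the same libraries. Chromosome 19, with a span of 58.2 Mb, held 279 members, and chromosome 1, with 194 Mb, held 348.

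The chromosomes differed more in how far the distal zone stood above the rest. On chromosome 7 the members reached 45.2 per Mb against 1.89 elsewhere, a ratio of 23.9 (20.5 to 27.8). Chromosome 1 had a ratio of 15.8 (13.7 to 18.3) and chromosome 4 of 13.8 (11.7 to 16.2). The lowest ratios were 3.44 on chromosome 15 (2.94 to 4.04) and 4.18 on chromosome 19 (3.56 to 4.91). Chromosomes with many members tended to have few pachytene-only regions elsewhere (Pearson r -0.46 and Spearman rho -0.52 over 19 chromosomes) and few SG-A regions in their own last 10 Mb (r -0.35 and rho -0.51). Chromosome 18 shows the latter pattern, with 321 members beside 265 distal SG-A regions, and chromosome 15 the reverse, with 210 beside 659. The rule bars a pacSC peak that meets an SG-A peak from being a member. The relation with SG-A regions can therefore be partly built in, and it is given as a description.

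On 18 of the 19 autosomes the fullest 1 Mb of members lay within 3 Mb of the end. It was the last 1 Mb on 7 chromosomes, the next on 8, and that from 2 to 3 Mb on 3. Chromosome 18 was the exception, with 56 members between 3 and 4 Mb. The median distance to the end ranged from 1.28 Mb on chromosome 7 to 3.83 Mb on chromosome 9. On chromosome 3 only 18 members lay in the last 1 Mb and 69 between 2 and 3 Mb. Some stretches were empty, with 0 members between 5 and 6 Mb on chromosome 2 and between 9 and 10 Mb on chromosomes 4, 10 and 12.

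**Figure D2:**
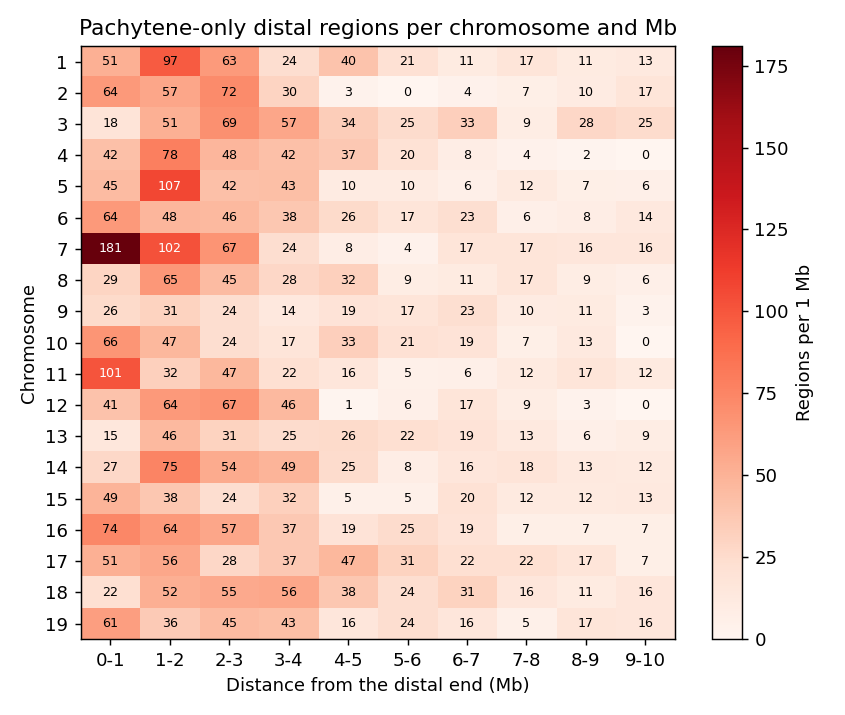
Number of pachytene-only regions in each 1 Mb bin (horizontal axis, distance from the distal end in Mb) on each autosome (vertical axis), with darker red for more regions. The last 1 Mb of chromosome 7 holds 181 and that of chromosome 11 holds 101, and chromosome 5 has 107 between 1 and 2 Mb.

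The fullest 1 Mb windows on the files' own coordinates were on chromosomes 7 and 11. The window chr7:151000001-152000000 held 148 members, with a median width of 108 bp, among 162 pacSC peaks, against 39 peaks in SG-A, 17 in PriSG-A and 2 in rST. Its neighbour chr7:152000001-153000000 held 109 members among 130 pacSC peaks, beside 23 PriSG-A, 36 SG-A and 1 rST peaks. In chr11:121000001-122000000 there were 93 members among 116 pacSC peaks, beside 25 PriSG-A, 29 SG-A and 4 rST peaks. In all 3 windows most pacSC peaks were members.

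Most members were narrow and weak, and a small number were wide and strong. Median width was 108 bp (quartiles 88.0 and 249). Median signal value was 50.7 (quartiles 30.6 and 112), in a list whose lowest value was 20.0, and median −log10 q was 2.19. Only 120 members, or 2.21% (1.85 to 2.64), had a −log10 q of at least 5. The 270 regions left with all lists at that limit had a median width of 981 bp. They outnumber the 120 because regions whose counterpart in another list is under the limit then count as pachytene-only. All members together covered 1.15 Mb, which was 0.604% of the distal sequence, against 1.79 Mb, or 0.944%, for the other pacSC peaks there.

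The strong tail was longer near the ends. Members at least 500 bp wide numbered 460, or 8.48% (7.77 to 9.25), against 4.71% (4.27 to 5.19) of the pachytene-only regions elsewhere. At 1000 bp the counts were 104 of 5425 (1.92%, 1.58 to 2.32) and 42 of 8161 (0.515%, 0.381 to 0.695). The highest 10% of the pacSC list by signal value took in 86 members, or 1.59% (1.29 to 1.95), against 0.343% (0.237 to 0.495) elsewhere. The medians did not follow, since pachytene-only regions elsewhere had a median width of 106 bp and a median signal value of 53.6. Among members, the share at least 500 bp wide was between 7.47% and 9.37% in each bin of distance, so the wide ones were not confined to the tip. The longer tail was not particular to members. Of the pacSC peaks shared with other stages, 45.4% (43.6 to 47.2) in the last 10 Mb were at least 500 bp wide, against 34.7% (34.0 to 35.4) elsewhere. The highest 10% by signal value took in 27.8% (26.2 to 29.4) and 14.4% (13.9 to 15.0) of them.

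**Figure D3:**
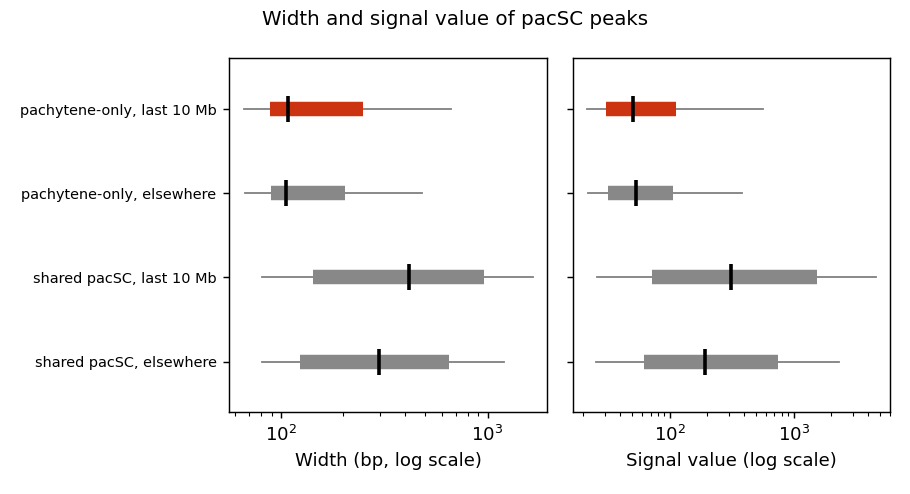
Width (left, bp, log scale) and signal value (right, log scale) of pacSC peaks in 4 classes. Thick bars span the quartiles, thin lines the 5th to 95th percentile, and ticks the median. The pachytene-only classes share medians of 108 and 106 bp, and the 95th percentile of width is 669 bp in the last 10 Mb against 481 bp elsewhere.

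The strongest member was chr8:130244921-130247365, 2445 bp wide, with a signal value of 6360 and a −log10 q of 9.92. It ranked 116 of all 33775 pacSC peaks and lay 1.35 Mb from the end. Its nearest SG-A peak was 859 bp away, its nearest PriSG-A peak 54.2 kb and its nearest rST peak 775 kb. So it was close to a spermatogonial peak and far from any spermatid peak.

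Next came chr5:150625688-150628854, with a signal value of 6009, 4.04 kb from SG-A and 5.27 kb from PriSG-A. The widest member, chr19:58946904-58951703, was 4800 bp long with a signal value of 5308, and both spermatogonial lists were more than 10 kb away (10.9 kb for SG-A, 11.2 kb for PriSG-A). The fourth was chr11:121331627-121333706, at 5037, only 0.511 Mb from the end. The leading 4 thus came from 4 chromosomes and all lay within 3 Mb of an end.

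Next in order, chr17:86627530-86630647 (4103), stood apart from the others in position, at 8.64 Mb from the end and 42.2 kb from the nearest SG-A peak. The remaining members among the 10 strongest were chr5:150796140-150797984 (3523), chr11:120999300-121000931 (3421), chr9:122655828-122656836 (3239), chr16:98080658-98082876 (3055) and chr6:147953942-147954967 (2987). Of these 10, 9 lay within 3 Mb of the end, as did 56.8% of all members. Within 1 kb of a spermatogonial peak lay 1 of the 10, beside 15.0% of all members. The 10 came from 8 chromosomes.

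Strongest here means highest signal value, which grows with width. The strongest of each chromosome ranged in signal value from 1352 to 6360 with a median of 2865, and in width from 539 to 4800 bp. Their −log10 q ranged from 3.75 to 9.92 with a median of 6.54. It was under 5 on chromosomes 2 (3.75), 10 (4.63) and 15 (4.99). Examples outside the 10 strongest were chr14:120244138-120245317 (2933), chr12:118054164-118055691 (2865), chr2:180955242-180958593 (2636), chr4:151059132-151060739 (2487) and chr15:103276281-103277417 (2347). Of the 19, 12 lay within 3 Mb of the end, where 56.8% of all members lay. The one on chromosome 2 bordered on the rule, with an SG-A peak 122 bp and a PriSG-A peak 340 bp away.

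Lower values came from chr3:153962702-153963594 (2161), chr1:194274058-194275012 (2112), chr10:128479013-128480537 (2052) and chr7:152140607-152142560 (1765). Chromosome 7, which had the most members, therefore had one of the weaker leading members. The lowest were on chr18:83793418-83794550 (1501), 6.98 Mb from the end, and chr13:113945677-113946215 (1352), 6.34 Mb from it. The member nearest to a chromosome end was chr9:124049380-124049575, with a signal value of 23.8. It set the end of chromosome 9 itself, since no peak of any list reached further.

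Members lay close to one another. The median gap between neighbouring members was 10732 bp (quartiles 668 and 36202), against 97486 bp (6248 and 304859) between pachytene-only regions elsewhere. Another member was found within 10 kb of 71.6% of members (70.4 to 72.8), and within 1 kb of 46.1% (44.7 to 47.4). The matching shares elsewhere were 46.3% (45.2 to 47.4) and 39.8% (38.7 to 40.8). The share within 10 kb was 6.30% at a −log10 q of at least 5 in all lists, 26.5% at 3 in pacSC and 17.5% at equal list length. Fewer regions enter under each of these limits, and such shares move with density.

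Joined at gaps under 10 kb, the members formed 2790 clusters, 1542 of them single regions. Clusters of 5 or more numbered 149 and held 1046 members, or 19.3%, against 3.01% of pachytene-only regions elsewhere. There were 17 clusters of 10 or more in the distal zone and 1 elsewhere. Cluster size also moves with density, which was 28.6 per Mb in the distal zone and 3.67 elsewhere. The fullest was chr7:152346263-152416313, where 24 members lay in 70.1 kb at a median of 0.131 Mb from the end. That stretch held 26 pacSC peaks in all, 2 PriSG-A peaks, 4 SG-A peaks and no rST peak.

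The cluster that followed was chr11:121775674-121829097, with 21 members in 53.4 kb and a median of 0.0345 Mb from the end. Chromosome 7 also held chr7:152429771-152465864, where all 19 pacSC peaks were members. In chr11:121687536-121707448 there were 16 members in 19.9 kb, covering 5719 bp. Another 16 lay in 18.3 kb at chr5:150618090-150636372, the cluster that includes the second strongest member and lies 1.91 Mb from the end. None of these 5 clusters held an rST peak, from a list of only 6233 autosomal peaks, while each held at least 1 PriSG-A or SG-A peak. In the 2 on chromosome 7 the members were individually weak, with highest signal values of 178 and 169.

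**Figure D4:**
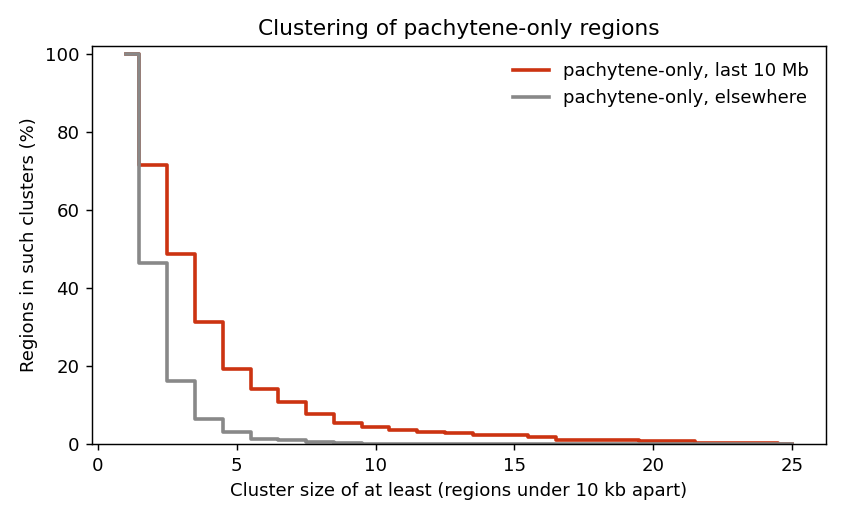
Share of pachytene-only regions (vertical axis, percent) that belong to clusters of at least the given number of regions (horizontal axis), with regions under 10 kb apart joined. At 5 or more the line for the last 10 Mb is at 19.3% and the line for the rest of the autosomes at 3.01%.

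Many members followed one another without a region of any other listing pattern between them. Such uninterrupted runs of 5 or more held 2355 members, or 43.4%, against 9.94% of pachytene-only regions elsewhere. Runs of 10 or more numbered 73 in the distal zone and 9 elsewhere. Run length moves with the pachytene-only share of all regions, 35.3% in the last 10 Mb and 8.28% elsewhere. Whether the runs are longer than this share alone would give was not tested. The longest was chr3:155246060-155808141, where 31 members followed one another over 562 kb with no peak of another stage. After it came chr18:89241854-89620730, with 24 members in 379 kb, and chr7:151023342-151146791, with 21 in 123 kb. Runs of 20 lay at chr8:129916025-130103234 and chr16:95219723-95385451.

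In windows of 100 kb counted from the distal end, 1357 of 1900 held a member, 429 held at least 5 and 87 at least 10. The fullest window held 32. Over the 1900 windows the number of members had a Spearman rho of -0.08 with that of regions listed in PriSG-A or SG-A. This is a description, since windows share libraries and neighbours and the rule bars a member from being a spermatogonial region. Windows with 10 or more members had a median of 3.00 spermatogonial regions, against 4.00 over all windows and 4.00 in windows without a member. In 161 of the 1357 windows with a member there was no spermatogonial region at all. The matching number for windows without a member was not counted, so 161 cannot be called many or few.

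Few members were near misses of a spermatogonial peak. The nearest SG-A peak lay at a median of 12.0 kb (quartiles 3.38 and 33.3), the nearest PriSG-A peak at 22.3 kb (7.60 and 53.1) and the nearest rST peak at 167 kb (69.5 and 351). A PriSG-A or SG-A peak was within 1 kb of 815 members, or 15.0% (14.1 to 16.0), against 16.9% (16.1 to 17.8) of pachytene-only regions elsewhere. An rST peak was within 1 kb of 1.35% (1.07 to 1.69), against 4.86% (4.42 to 5.35) elsewhere. With a shared length of 50% as the limit, the share within 1 kb of a spermatogonial peak was 31.4%, and at equal list length 0.656%. Just inside the rule were 108 members with a peak of another list within 100 bp. Of the 2940 shared distal pacSC peaks, 540 had 1 to 100 bp in other lists. Not all of these need be near misses, since a peak of at most 100 bp that is wholly covered counts too. The 5th percentile of width among the shared peaks was 81.0 bp.

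Among all pacSC regions of the distal zone, members made up the larger part. They were 5425 of 7879, or 68.9% (67.8 to 69.9), while elsewhere the pachytene-only share was 8161 of 21129, or 38.6% (38.0 to 39.3). The distal share was the higher one on 19 of 19 autosomes. It ranged from 54.7% on chromosome 15 to 84.0% on chromosome 18. Held to a −log10 q of at least 5 in all lists the distal share was 26.9%, and to 3 in pacSC 35.0%. The share elsewhere was not computed at these limits, so the 38.6% is not their counterpart. The density ratio at the same limits was 11.6 and 8.27.

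Regions that pacSC shared with rST were placed differently. Of the 1049 regions listed in pacSC and rST only, 6.20% (4.89 to 7.82) lay in the last 10 Mb, against 39.9% of those in pacSC alone. Regions common to SG-A and pacSC only came next, at 33.9% (31.7 to 36.1, 585 of 1728). For PriSG-A and pacSC only the share was 18.3% (15.1 to 21.9), and for all 3 of these stages without rST it was 15.5% (14.7 to 16.2). Regions of both spermatogonial stages without a later listing were at 6.90% (6.54 to 7.27). In rST, listing is scarce everywhere, since the list holds 6459 peaks against 33775 in pacSC.

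Regions that are not members, because spermatogonia listed them too, allowed a second look at the same chromosome ends. In the last 10 Mb, pacSC listed 57.1% (55.3 to 58.8) of the regions that both spermatogonial stages had, and elsewhere 37.2% (36.6 to 37.7). The share was 75.2% (70.3 to 79.6) in the last 1 Mb, 57.3% (53.2 to 61.3) from 3 to 5 Mb, 45.2% (43.2 to 47.3) from 10 to 20 Mb and 33.4% (32.6 to 34.3) beyond 80 Mb. For rST the same regions gave 11.5% (10.4 to 12.6) in the last 10 Mb and 10.8% (10.4 to 11.2) elsewhere.

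The distal share was the higher one at each of 5 levels of strength in SG-A. The regions of both spermatogonial stages were split by SG-A signal value into these groups of equal size. In the weakest group 20.9% of distal regions (17.6 to 24.7) were listed in pacSC, against 7.34% elsewhere (6.69 to 8.05). In the middle group the shares were 51.4% (47.6 to 55.1) and 22.7% (21.6 to 23.8), and in the strongest 97.7% (96.2 to 98.7) and 87.3% (86.4 to 88.2).

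Within the pacSC list, the regions it shared with both spermatogonial stages had higher signal values near the ends. Over regions listed in PriSG-A, SG-A and pacSC, the pacSC signal value had a median of 1595 in the last 1 Mb, 1781 from 1 to 2 Mb, 842 from 5 to 10 Mb and 479 from 40 to 80 Mb. In SG-A the same regions had medians of 2726, 2873, 3030 and 4246, and in PriSG-A of 880, 586, 710 and 1199. The pacSC median was higher in the last 10 Mb than elsewhere on 19 of 19 autosomes, by 1.04 to 3.87 times. The SG-A and PriSG-A medians were higher there on 1 of 19 each, with median ratios of 0.715 and 0.637. Divided by peak width in the same list, the pacSC value was higher distally on 16 of 19. The spermatogonial medians depend on the requirement of a pacSC listing, which was itself more frequent near the ends. Without it, over all regions of both spermatogonial stages, the SG-A median turned, at 1080 in the last 10 Mb against 909 elsewhere.

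**Figure D5:**
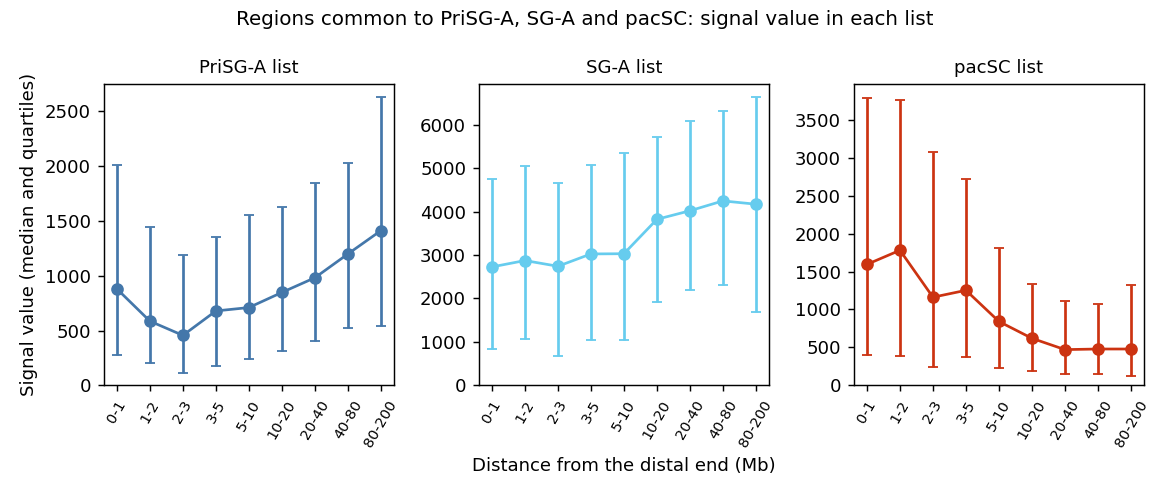
Signal value (vertical axis, each list on its own linear scale) of regions common to PriSG-A, SG-A and pacSC, by distance from the distal end (horizontal axis, Mb), as median with quartiles as bars. In pacSC the median is 1595 in the last 1 Mb and 479 from 40 to 80 Mb, and in SG-A it is 2726 and 4246.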

How the data were processed

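ATAC-seq of 4 germ cell stages was analysed, from 10 of the series' 30 samples; the 8 Hi-C and 12 ChIP-seq and input samples were not analysed here. The authors deposited 1 narrowPeak list per stage, which the labels name for every replicate of that stage. One deposited name is garbled: it was taken as PriSG-A, since the labels name such a list and the other 3 names match the other stages. Bowtie2 2.2.5, Bowtie and SAMtools are named, with no step attached, per the submitters' processing notes. The labels' protocols describe digestion of testes and not how stages were separated. Peak caller, handling of replicates, Tn5 shift and depth: not given in the sources used here.

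Of the deposited columns, the signal, the score, the −log10 q-value and the summit offset were read, per the usual narrowPeak column order. In every list the deposited score is 1000 times signal over width, with a cap at 1000 and a tolerance of 1, for 100% of peaks. Signal is therefore an area. Neighbouring peaks within a list lie at least 101 bp apart.

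The notes name mm10, but on 10 of 19 autosomes peaks lie beyond the last gene of a GRCm38 RefSeq table, by up to 7.20 Mb on chromosome 7. Extents resemble the older mm9 assembly. Positions are therefore printed as the files give them, 1-based, with no genes and no sequences.

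Regions were joined in Python 3.11.15 (pandas 2.3.3, numpy 2.4.6, scipy 1.17.1, with figures in matplotlib 3.10.9); the functions were checked on simulated lists. Density outside the distal zone uses the span from the lowest to the highest peak of each chromosome. No test was made, since 1 list per stage gives no replicate error. The members and lists were chosen with earlier results of these data known. Named are the strongest member of each chromosome, the 10 strongest, the widest, the one nearest to an end, the 3 on each side of the 10 Mb border, the 3 fullest 1 Mb windows and the 5 fullest clusters. The 5 longest runs, and single chromosomes or bins cited as extremes, were chosen after their values were seen. Alternatives changed the threshold, list length, overlap, zone, counting unit and chromosomes.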

Additional observations from a re-analysis of the deposited data

Results flagged for a closer look

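The X chromosome was outside the set but also had pachytene-only regions near its distal end. Of 118 pachytene-only regions on X, 23 (19.5%) lay in its last 10 Mb, 20 of them in the last 1 Mb and 17 in the last 0.2 Mb. The share of all X regions in these stretches was not computed. Whether pachytene-only regions stand out there from other regions is therefore not known. The mouse X carries the pseudoautosomal region, which pairs with Y in male meiosis, at this end. The 20 regions of the last 1 Mb were 115 to 6397 bp wide, with a median of 346 bp, against 108 bp for the autosomal members. The cause of this difference was not tested, and X entered no count above.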

How the results depend on the processing

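The alternatives gave 50 values, of which 34 moved beyond the interval of the reported value or, for counts and width, beyond 1.5 times. The density ratio was above 1 in each of them. Stricter settings let fewer peaks in, and beyond that the cause was not tested. Held to a −log10 q of 5 or more, the lists gave 270 regions (ratio 11.6, pachytene-only share of distal pacSC regions 26.9%, with another within 10 kb 6.30%, within 1 kb of a spermatogonial region 0.370%, median width 981 bp). With at least 3 in pacSC these were 872, 8.27, 35.0%, 26.5%, 11.8% and 410 bp. At equal list length (6459 peaks each) they were 762, 9.52, 53.3%, 17.5%, 0.656% and 914 bp. Where all lists were cut, regions with a weaker counterpart in another list also count as pachytene-only, so these values are not those of members alone. A reciprocal overlap of 50% gave a ratio of 4.80 and shares of 80.9%, 75.0% and 31.4%. Counting other lists within 1 kb as shared gave 8.23 and 58.1%, and sets the share within 1 kb to 0 by construction. The last 5 Mb gave 10.8, 73.8% and 75.5% within 10 kb, the last 20 Mb 5.17, 63.8% and 67.8%. Counting each 100 kb window once gave 1357 windows, a ratio of 3.13 and a share of 80.7%. Without chromosome 7 the ratio was 7.29. The unknown depth limits every comparison between lists. No paired analysis was possible because the replicates of a stage stand in a single list, which also means that none of them could be left out.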
